A study of Mus musculus with 12 samples.

Results

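The fibrillar collagens are the chains that assemble into the banded collagen fibrils of the vessel wall. All 9 chains asked for, of types I, III, V, XI, XXIV and XXVII, were found by gene symbol among the 30130 genes listed. They were compared between chronic proximal thoracic aortic aneurysms (cPTAA) and sham-operated proximal thoracic aortas of male C56BL/6J mice. The 7 cPTAA libraries (2, 3, 4, 6, 7, 9 and 12) came from mice given elastase around the aorta together with BAPN, an inhibitor of lysyl oxidases. The 5 sham libraries (1, 5, 8, 10 and 11) came from mice given sham surgery and normal water. Elastase and BAPN therefore differed together, against sham surgery and normal water. No source used here gave the age of the mice or the time after surgery. No title says which animal a sample came from, and the p-values below therefore measure spread among these samples, part of which may be technical.

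Fibrillar collagens are secreted as procollagen trimers with a long helical middle part, are cut at both ends outside the cell, and are then crosslinked by lysyl oxidases. Type I, made of Col1a1 and Col1a2 chains, and type III, made of Col3a1 chains alone, form most of the fibril mass of the aortic wall. Type V chains join the same fibrils in small amounts and help to start them and to limit their diameter. Type XI is its counterpart in cartilage, and types XXIV and XXVII are minor chains known mainly from bone and cartilage.

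Promoters were matched for 7 of the 9 chains in RefSeq (build GRCm38.p6), as windows of 250 bases before to 50 after the annotated start. They are shown because the chains below differed in how far they moved with the type I genes, and collagen promoters are read through short boxes near the start. No window was matched for Col1a1 or Col5a2, so their promoters cannot be compared here. Capitals mark CCAAT (the box bound by NF-Y), GGGCGG (the box bound by Sp1), TATAAA and CAGAC (letters of the Smad-binding element), each on either strand. The first 280 bases of each window except that of Col24a1 are printed, 5′ to 3′ on the gene's strand. Col1a2 (chr6:4505368-4505647, plus strand), Col3a1 (chr1:45311288-45311567, plus strand), Col5a1 (chr2:27886175-27886454, plus strand), Col5a3 (chr9:20815038-20815317, minus strand), Col11a1 (chr3:114030290-114030569, plus strand) and Col27a1 (chr4:63215162-63215441, plus strand) read as follows.
Col1a2: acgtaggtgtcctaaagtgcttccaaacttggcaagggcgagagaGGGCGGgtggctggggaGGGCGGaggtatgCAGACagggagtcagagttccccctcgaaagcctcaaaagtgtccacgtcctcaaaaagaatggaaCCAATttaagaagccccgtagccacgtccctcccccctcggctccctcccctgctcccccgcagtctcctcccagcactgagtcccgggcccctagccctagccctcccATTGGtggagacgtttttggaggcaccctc
Col3a1: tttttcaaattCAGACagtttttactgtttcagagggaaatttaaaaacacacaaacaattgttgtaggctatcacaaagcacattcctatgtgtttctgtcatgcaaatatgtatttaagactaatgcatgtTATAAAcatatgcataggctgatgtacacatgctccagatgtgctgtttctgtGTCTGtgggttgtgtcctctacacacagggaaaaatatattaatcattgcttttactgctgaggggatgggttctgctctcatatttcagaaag
Col5a1: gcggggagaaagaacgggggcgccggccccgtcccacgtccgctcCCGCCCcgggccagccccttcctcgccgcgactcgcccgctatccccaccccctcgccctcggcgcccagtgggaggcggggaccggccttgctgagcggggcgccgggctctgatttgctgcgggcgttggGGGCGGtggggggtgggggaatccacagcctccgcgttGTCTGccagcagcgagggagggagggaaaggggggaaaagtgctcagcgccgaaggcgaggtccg
Col5a3: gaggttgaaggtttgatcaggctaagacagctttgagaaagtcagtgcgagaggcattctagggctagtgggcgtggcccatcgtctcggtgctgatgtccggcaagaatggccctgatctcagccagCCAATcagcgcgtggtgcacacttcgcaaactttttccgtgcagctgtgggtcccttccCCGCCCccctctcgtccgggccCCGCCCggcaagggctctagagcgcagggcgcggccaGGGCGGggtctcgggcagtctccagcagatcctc
Col11a1: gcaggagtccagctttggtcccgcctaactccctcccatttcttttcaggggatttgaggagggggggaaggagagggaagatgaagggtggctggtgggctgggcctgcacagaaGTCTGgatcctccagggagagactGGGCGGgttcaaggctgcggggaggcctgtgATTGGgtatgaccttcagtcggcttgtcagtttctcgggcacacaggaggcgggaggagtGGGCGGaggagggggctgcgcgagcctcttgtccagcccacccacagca
Col27a1: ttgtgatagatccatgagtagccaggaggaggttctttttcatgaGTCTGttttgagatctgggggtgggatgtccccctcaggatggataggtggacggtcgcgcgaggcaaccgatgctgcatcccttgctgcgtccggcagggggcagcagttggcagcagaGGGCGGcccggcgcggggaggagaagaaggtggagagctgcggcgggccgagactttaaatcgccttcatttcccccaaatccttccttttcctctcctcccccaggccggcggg

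The letters CCAAT stood in 3 of the 7 matched windows (Col1a2, Col5a3 and Col11a1), against 37.4% of all 32851 promoter windows. GGGCGG stood in 5 of 7, all but Col3a1 and Col24a1, against 35.7% of all windows. TATAAA stood in 1 of 7, Col3a1, starting 117 bases before the start, against 13.6% of all windows. CAGAC stood in 5 of 7, against 49.6% of all windows. The Col3a1 window held 37.7% G and C, against 56.3% to 75.0% in the other 6 (over the whole window, not only the printed bases). Such matches describe the letters and show neither binding nor its absence.

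Several libraries stood apart from their group. Sham 8 held the highest sham sums of cartilage and mesothelial markers (7636 and 2967 normalised read counts, with the next sham libraries at 1491 and 805). Most of the mesothelial sum was Msln alone (2597). The mesothelial markers Upk3b and Wt1, at 350 and 20.4 in sham 8, lay within the range of the other sham libraries. The cardiomyocyte marker sum was 17960, 22354 and 117761 in cPTAA 6, 7 and 9, at most 1495 in the other cPTAA libraries and at most 5918 in sham. Libraries cPTAA 6, 7 and 9 and sham 8 were also left out together, since earlier results of these data had set them apart. In cPTAA 12 the smooth muscle marker sum was 65256, the lowest of all libraries. That library also held the highest sums of cartilage and osteoblast markers, at 36197 and 5616, with the next cPTAA libraries at 17485 and 1116 and sham at no more than 7636 and 485. Most of these sums came from Comp (27979) and Ibsp (4958). Col2a1, Runx2 and Sp7 were also highest of all libraries in cPTAA 12, at 5971, 323 and 202. The osteoblast marker Alpl was lowest of all there, at 129. The cartilage markers Matn1, Hapln1 and Cnmd were low there, at 2.77, 20.3 and 13.8.

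Reads of the 9 chains together took up a larger part of the cPTAA libraries than of the sham libraries. They made up between 0.468% and 2.19% of all reads in cPTAA (median 0.974%) and between 0.179% and 0.380% in sham (median 0.270%), and the groups did not overlap. The Wilson 95% interval of the highest library, cPTAA 12, was 2.18% to 2.20%, and that of the lowest, sham 1, was 0.177% to 0.181%; such intervals cover counting error only. Within this sum the 3 main chains had ranges that overlapped between groups. Col3a1 held a median of 44.3% of the fibrillar reads in cPTAA and 41.4% in sham, Col1a2 held 30.2% in cPTAA and 31.9% in sham, and Col1a1 held 10.3% in cPTAA and 8.91% in sham. Col5a1 held 1.72% to 3.19% of the fibrillar reads in cPTAA and 3.34% to 6.47% in sham, and Col27a1 held 0.116% to 0.443% in cPTAA and 0.479% to 2.01% in sham. Those 2 shares were lower in cPTAA with no overlap between groups, as a description without a test.

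**Figure D1:**
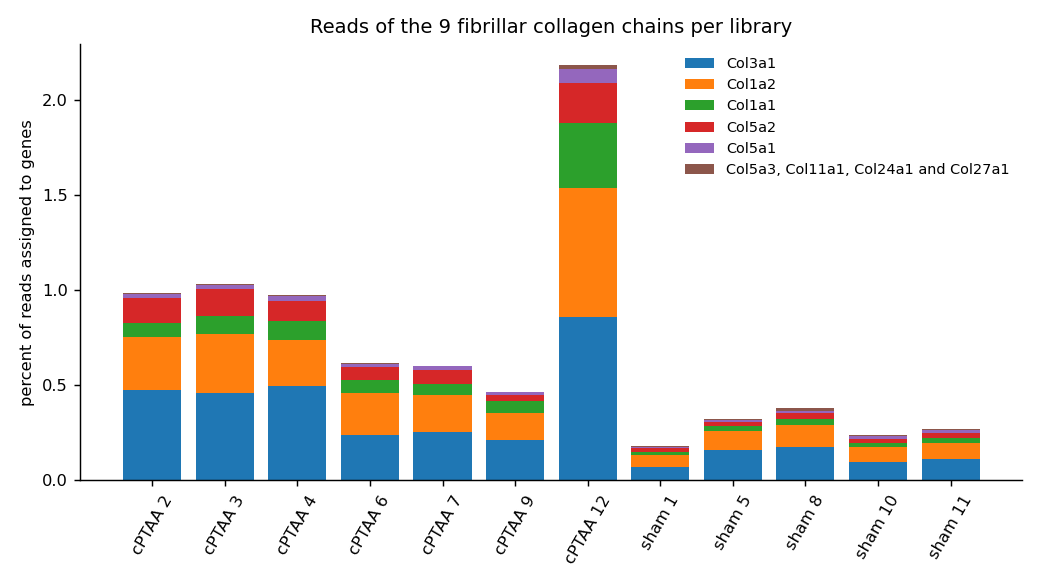
Reads of the 9 fibrillar collagen chains as percent of all reads assigned to genes, 1 bar per library, cPTAA on the left and sham on the right, coloured by chain. The cPTAA bars reach 0.468% to 2.19% and the sham bars 0.179% to 0.380%, with cPTAA 12 the highest.

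Of the 9 chains, 6 rose in cPTAA and 0 fell (limma on log2(value + 1), Benjamini-Hochberg adjusted p under 0.05 over 21415 genes), where 12.9% of all tested genes rose and 11.1% fell. At an unadjusted p under 0.05 there were 8 chains, Col27a1 in the lower direction, where 35.7% of all tested genes passed in either direction. By edgeR and by DESeq2 1 chain fell (Col27a1), where 14.3% and 11.8% of the genes these tools tested fell. The median log2 fold change of the 9 chains was 1.48, against -0.05 over all tested genes. For 4 chains every cPTAA library lay above every sham library, where 8.02% of all tested genes did so, and for 0 chains every cPTAA library lay below, where 4.95% of genes did. All 9 chains passed the filter on low values. In tissue RNA, more cells of a type and more RNA per cell cannot be told apart.

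**Figure D2:**
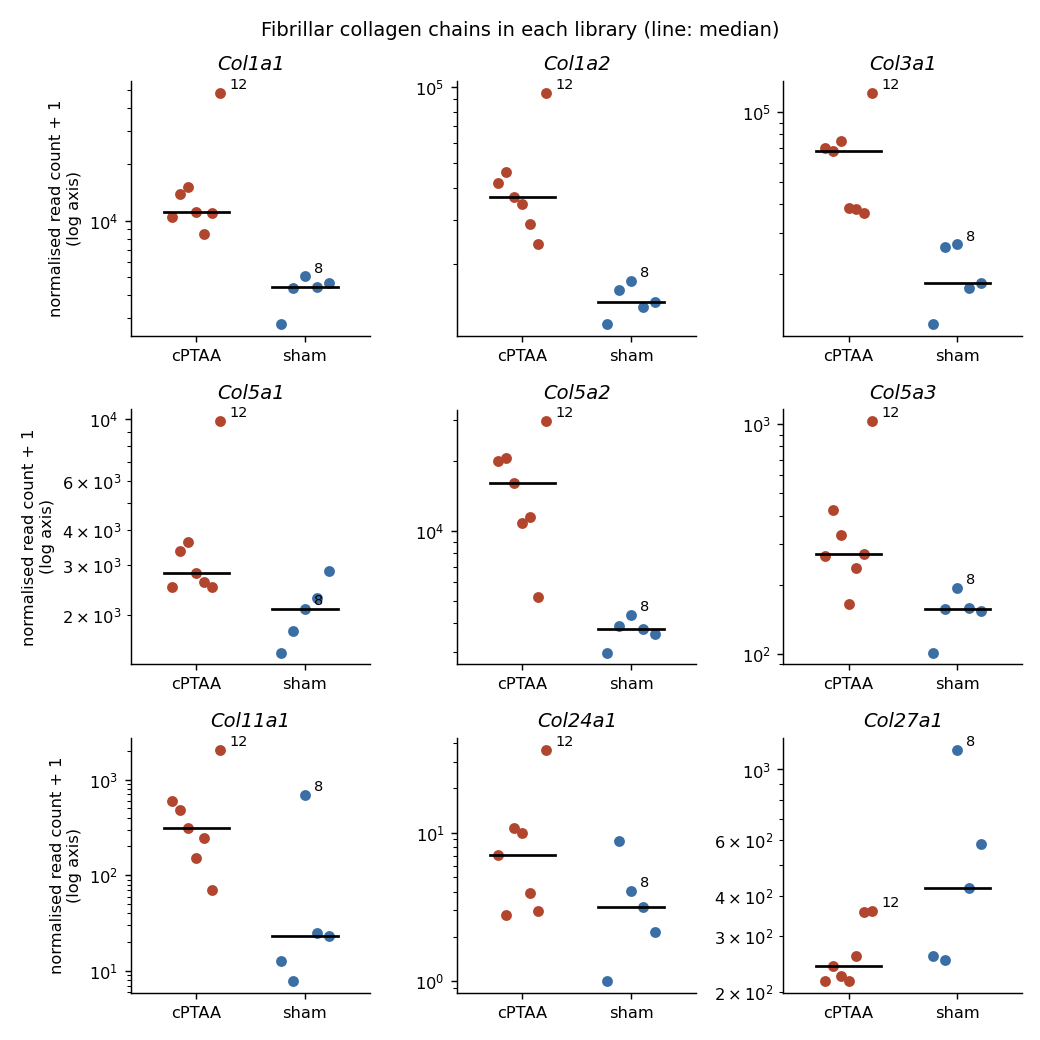
Normalised read count + 1 of each chain on a log axis, 1 point per library, cPTAA left of sham, with the group median as a line and cPTAA 12 and sham 8 marked. Col1a1, Col1a2, Col3a1 and Col5a2 show no overlap between groups, and cPTAA 12 is the highest cPTAA library for all 9 chains.

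Both type I chains rose. Col1a1, the alpha1 chain, had between 8518 and 48402 normalised read counts in cPTAA (median 11133), against 2784, 4361, 5035, 4427 and 4661 in sham 1, 5, 8, 10 and 11. Its log2 fold change was 1.76 ± 0.35 (SE, limma adjusted p = 0.00189). Library cPTAA 12 stood alone at the top, with the next highest cPTAA library at 15194, and the groups did not overlap. Col1a2, the alpha2 chain, had between 24096 and 95063 in cPTAA (median 36720), against 11563, 15842, 17159, 13544 and 14122 in sham 1, 5, 8, 10 and 11. The log2 fold change of Col1a2 was 1.48 ± 0.30 (SE, limma adjusted p = 0.00218). Without cPTAA 12 and sham 8, a choice made after seeing the data, the log2 fold changes were 1.53 ± 0.21 for Col1a1 and 1.34 ± 0.23 for Col1a2.

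Col3a1, the only chain of type III, also rose. It had between 36791 and 121194 normalised read counts in cPTAA (median 67950), against 12092, 26228, 26790, 17386 and 18224 in sham 1, 5, 8, 10 and 11. With limma the log2 fold change came to 1.595 ± 0.34 (SE, adjusted p = 0.00334). The lowest cPTAA libraries were 6, 7 and 9, at 38366, 38021 and 36791, and these too lay above every sham library. They are the libraries with the highest cardiomyocyte marker sums; without them and sham 8 the log2 fold change was 2.19 (adjusted p = 0.000171), and the part of these cells in the spread was not tested.

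The type V chains did not move alike. Col5a2, the alpha2 chain of type V, had between 5174 and 29792 normalised read counts in cPTAA (median 16024), against 2974, 3896, 4334, 3788 and 3596 in sham 1, 5, 8, 10 and 11. Its log2 fold change of 1.96 ± 0.34 (SE, limma adjusted p = 0.000644) came with no overlap, though cPTAA 9, at 5174, lay close to the highest sham library at 4334. Col5a1, its partner chain, had between 2510 and 9829 in cPTAA (median 2811), against 1461, 1751, 2096, 2292 and 2861 in sham 1, 5, 8, 10 and 11. The log2 fold change of Col5a1 was 0.75 ± 0.30 and did not pass (limma adjusted p = 0.0864). All 7 cPTAA values lay above the sham median, but only 3 lay above the highest sham value. DESeq2 and voom with sample weights did call Col5a1 higher (adjusted p = 0.0349 and 0.0223, log2 fold changes 0.89 and 0.68).

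Col5a3, a further chain of type V at a much lower level, rose with some overlap. It had between 163 and 1030 normalised read counts in cPTAA (median 271), against 100, 156, 193, 157 and 152 in sham 1, 5, 8, 10 and 11. Its log2 fold change was 1.13 ± 0.35 (SE, limma adjusted p = 0.0290), and 6 of 7 cPTAA libraries lay above every sham library. The call was lost without cPTAA 3 or sham 1, 5, 10 or 11 (adjusted p = 0.0549, 0.0783, 0.0516, 0.0554 and 0.0567), where the log2 fold change was 0.99 to 1.15.

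Col11a1, the alpha1 chain of type XI, had the highest fitted log2 fold change of the 9 chains with limma on log2(value + 1), but not with edgeR or DESeq2, where those of Col5a2 (2.11 and 2.13) and Col1a1 (1.98 and 1.99) were higher. Its values varied widely within both groups. It had 595, 482, 311, 152, 242, 69.6 and 2056 normalised read counts in cPTAA 2, 3, 4, 6, 7, 9 and 12, against 11.6, 6.82, 696, 23.9 and 22.1 in sham 1, 5, 8, 10 and 11. Every cPTAA library lay above 4 of the 5 sham libraries, while sham 8 lay above 6 of the 7 cPTAA libraries. The log2 fold change was 3.35 ± 0.98 (SE, limma adjusted p = 0.0221), and 4.45 ± 0.70 without sham 8 (adjusted p = 0.000394). The call was lost without sham 1, 5, 10 or 11 (adjusted p = 0.0611, 0.0650, 0.0536 and 0.0546) and by edgeR and DESeq2 (adjusted p = 0.227 and 0.226, log2 fold changes 1.86 and 1.87).

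Cartilage genes moved with Col11a1 in sham 8 and in part in cPTAA. Of 7 chondrocyte markers, 2 rose (Col2a1 and Comp) and 1 fell (Hapln1), and their summed level ran from 5573 to 36197 normalised read counts in cPTAA and from 1071 to 7636 in sham. In sham 8 the cartilage matrix genes Matn1 and Hapln1 and the cartilage gene Cnmd were at 518, 1050 and 638, while the other sham libraries held at most 24.4, 65.2 and 36.1. The same genes reached at most 7.72, 30.4 and 13.8 in cPTAA, where Matn1 was at 0 in 3 libraries. The chondrocyte marker Sox9 was at 74.9 to 130 in cPTAA, 307 in sham 8 and 27.4 to 36.1 in the other sham libraries. Acan, a further chondrocyte marker, was at 288 to 2086, 2825 and 215 to 422 in the same order. Neither passed over all libraries (limma adjusted p = 0.174 for Sox9 and 0.571 for Acan). Col2a1, the type II chain of cartilage fibrils, was at 128 to 5971 in cPTAA (median 1349), against 7.38, 12.7, 648, 13.0 and 44.2 in sham 1, 5, 8, 10 and 11 (log2 fold change 4.67 ± 1.08, limma adjusted p = 0.00555). Comp, a matrix protein of cartilage and tendon that binds collagen, was at 5004 to 27979 in cPTAA and 442 to 1651 in sham. With the score of these markers other than Col2a1 in the model, a choice made after seeing the data, Col11a1 had a log2 fold change of 3.34 ± 0.56 (SE, limma adjusted p = 0.000604). That score was 6.39 ± 0.45 in cPTAA and 6.38 ± 1.98 in sham (SD, n = 7 and 5), highest in sham 8. With group means so alike, the score could hardly change the fitted log2 fold change, which was 3.35 ± 0.98 without it. The smaller adjusted p came from the smaller SE. Whether cartilage tissue accounts for the Col11a1 result was therefore not tested by this fit.

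**Figure D3:**
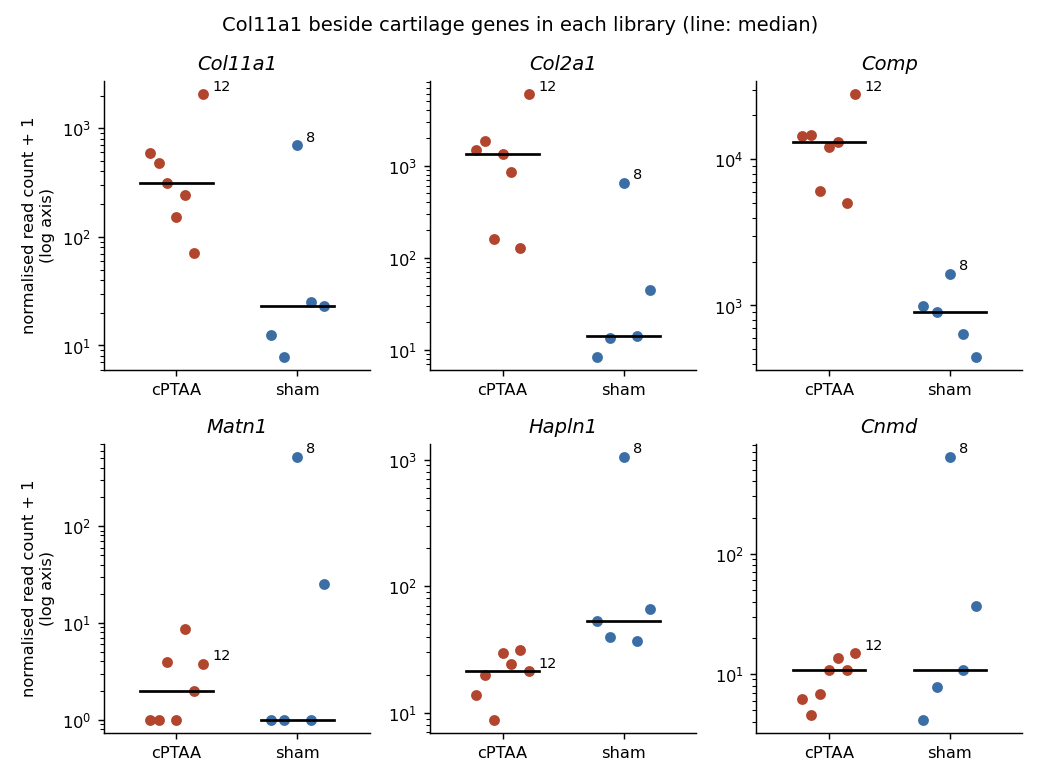
Normalised read count + 1 on a log axis of Col11a1 and of 5 cartilage genes, 1 point per library, cPTAA left of sham, with medians as lines. Col11a1, Col2a1 and Comp are high in cPTAA, while Matn1, Hapln1 and Cnmd stand out in sham 8 alone, at 518, 1050 and 638.

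The remaining chains were low and did not pass. Col24a1, the type XXIV chain, had between 1.80 and 35.1 normalised read counts in cPTAA (median 6.04), against 0, 7.79, 3.06, 2.17 and 1.16 in sham 1, 5, 8, 10 and 11. It stood on 0 to 38 reads a library, and the 0 in sham 1 allows up to 3.16 normalised read counts (3 reads). Its log2 fold change was 1.23 ± 0.68 (SE, limma adjusted p = 0.209). Col27a1, the type XXVII chain, had between 215 and 358 in cPTAA (median 241), against 259, 251, 1154, 424 and 582 in sham 1, 5, 8, 10 and 11. Its log2 fold change of -0.79 ± 0.32 was the single negative one and did not pass (SE, limma adjusted p = 0.0901). Col27a1 did pass as lower without sham 1 or sham 5 (adjusted p = 0.0448 and 0.0400, log2 fold changes -0.986 and -0.997) and by edgeR and DESeq2 (adjusted p = 0.0331 and 0.0164). Without sham 8, where Col27a1 was highest, its log2 fold change was -0.45 (adjusted p = 0.213). The score of the chondrocyte markers other than Col2a1 was also highest there, at 9.80. The summed level of all chondrocyte markers was highest in cPTAA 12, at 36197, against 7636 in sham 8.

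Relative levels between chains were read per kilobase of exon (GENCODE M21 gene models), since longer genes collect more reads. Each length joined the exons of all annotated transcripts of a gene and can exceed that of the RNA present. It was 6.56, 12.4 and 9.82 kilobases for Col1a1, Col1a2 and Col3a1. Per kilobase, Col3a1 averaged 6506 ± 3087 normalised read counts in cPTAA and 2052 ± 639 in sham (SD, n = 7 and 5), followed by Col1a2 at 3532 ± 1912 in cPTAA and 1163 ± 173 in sham. Col1a1 came next at 2583 ± 2140 in cPTAA and 648 ± 131 in sham, then Col5a2 at 1698 ± 842 in cPTAA and 388 ± 51.7 in sham, and Col5a1 at 459 ± 312 in cPTAA and 246 ± 63.0 in sham. On these lengths, the order Col3a1, Col1a2, Col1a1 held within every library, and it was not checked on other lengths. Col1a1 lay above Col5a2 in 5 of 7 cPTAA libraries and in 5 of 5 sham libraries, so these neighbours were not separated in cPTAA. Below them, Col5a3 lay above Col11a1 in 5 of 7 cPTAA libraries and Col11a1 above Col27a1 in 4 of 7, and those neighbours were not separated either. In sham, Col27a1 lay above Col5a3 in 4 of 5 libraries.

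Ratios of 2 chains were taken within each library, as normalised read count + 1 over normalised read count + 1, and 12 of them were compared between groups with a two-sided exact permutation test over samples (792 assignments, smallest possible p = 0.00253). After Benjamini-Hochberg adjustment over the 12 ratios, 3 differed, and in all 3 the ratio was lower in cPTAA. At an unadjusted p under 0.05 there were 5. The ratios are not corrected for length, so only their difference between groups is read. For Col24a1, at a few reads a library, the added 1 and the library scaling do not cancel.

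The ratio of Col5a1 to Col1a2 was lower in cPTAA with no overlap. It was 0.0601, 0.0730, 0.0987, 0.0813, 0.0907, 0.105 and 0.103 in cPTAA 2, 3, 4, 6, 7, 9 and 12, against 0.126, 0.111, 0.122, 0.169 and 0.203 in sham 1, 5, 8, 10 and 11. The log2 difference was -0.73 (exact permutation p = 0.00253, adjusted p = 0.0152), and it was lower in 7 of 7 cPTAA libraries than in any sham library. The ratio of Col27a1 to Col1a2 was 0.00378 to 0.0148 in cPTAA and 0.0159 to 0.0673 in sham, again with no overlap (log2 difference -2.27, exact permutation p = 0.00253, adjusted p = 0.0152). Both differences stayed past the threshold without any 1 library (adjusted p from 0.0130 to 0.0364 for each) and without cPTAA 12 and sham 8 together (adjusted p = 0.0381 for each). With medians in place of means, neither passed (adjusted p = 0.101 for each).

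Within type V, the ratio of Col5a1 to Col5a2 was lower in cPTAA. It was 0.126, 0.163, 0.226, 0.260, 0.226, 0.487 and 0.330 in cPTAA 2, 3, 4, 6, 7, 9 and 12, against 0.491, 0.450, 0.484, 0.605 and 0.796 in sham 1, 5, 8, 10 and 11. Only cPTAA 9 reached into the sham range (log2 difference -1.21, exact permutation p = 0.00758, adjusted p = 0.0303). The adjusted p was 0.0519 to 0.0727 without any 1 of cPTAA 2, 3, 4, 7 and 12 and sham 1, 10 and 11, with log2 differences of -1.38 to -1.06 over all single omissions, and 0.0571 without cPTAA 12 and sham 8. The ratio of Col5a2 to Col1a2 was 0.215 to 0.477 in cPTAA and 0.246 to 0.280 in sham and did not pass (log2 difference 0.48, exact permutation p = 0.0354, adjusted p = 0.103). Without cPTAA 9, the lowest cPTAA library in this ratio, it did pass (adjusted p = 0.0130).

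The type I and III chains showed no detectable change in proportion. The ratio of Col1a1 to Col1a2 was 0.252 to 0.509 in cPTAA (median 0.322) and 0.241 to 0.330 in sham (median 0.293), with a log2 difference of 0.28 (exact permutation p = 0.164, adjusted p = 0.219). That ratio was highest in cPTAA 12, at 0.509, and cPTAA 9 and 4 followed at 0.456 and 0.414. The ratio of Col3a1 to Col1a1 had a log2 difference of -0.16 (exact permutation p = 0.500, adjusted p = 0.545) and that of Col3a1 to Col1a2 one of 0.12 (exact permutation p = 0.487, adjusted p = 0.545). Within-group SDs of these 3 log2 ratios ran from 0.19 to 0.46, so that small shifts could not be seen with these samples.

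**Figure D4:**
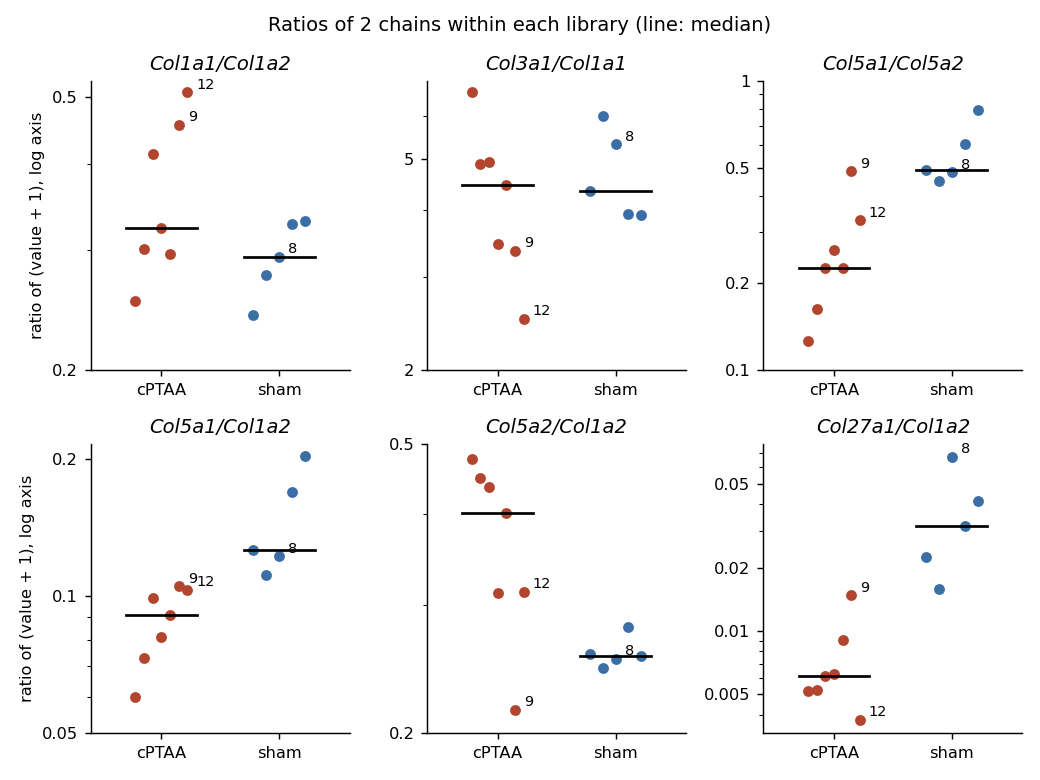
Ratio of 2 chains within each library on a log axis, as (value + 1) over (value + 1), cPTAA left of sham, with medians as lines and cPTAA 9, cPTAA 12 and sham 8 marked. Col5a1/Col1a2 and Col27a1/Col1a2 show no overlap between groups, and in Col5a1/Col5a2 only cPTAA 9, at 0.487, reaches the sham values.

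The other ratios did not pass over all libraries. Col11a1 to Col5a1 had medians of 0.0933 in cPTAA and 0.00861 in sham (log2 difference 2.60, exact permutation p = 0.0429, adjusted p = 0.103), and passed without sham 8 (log2 difference 3.69, adjusted p = 0.0242). Col5a3 to Col5a1 had medians of 0.105 in cPTAA and 0.0692 in sham (log2 difference 0.38, exact permutation p = 0.111, adjusted p = 0.190), and passed without cPTAA 6 (adjusted p = 0.0390). Col5a3 to Col1a2, Col5a2 to Col3a1 and Col24a1 to Col1a2 had log2 differences of -0.35, 0.37 and -0.25 (exact permutation p = 0.101, 0.129 and 0.664; adjusted p = 0.190, 0.193 and 0.664). The log2 difference of Col24a1 to Col1a2 turned to 0.49 when 0.1 was added in place of 1.

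Among the 7 cPTAA libraries the chains tended to be high in the same libraries as Col1a1, though no relation passed adjustment over the 8 tested. Pearson's r of log2 values with Col1a1 ran from 0.527 for Col27a1 to 0.987 for Col5a1 (exact permutation p = 0.379 and 0.00794, adjusted p = 0.379 and 0.0635). Spearman's rho ran from 0.286 to 0.893 for the same genes (exact permutation p = 0.556 and 0.0123, adjusted p = 0.556 and 0.0984). Without cPTAA 4 and 12, the libraries farthest from the Col1a1 median, r ranged from -0.214 for Col24a1 to 0.767 for Col5a1. These libraries were the highest in Col1a1, so leaving them out narrows its range and can by itself lower r. Without any 1 library, the lowest r was 0.874 for Col5a1, 0.682 for Col3a1, 0.6 for Col5a3 and 0.512 for Col1a2. It was 0.361 for Col5a2, 0.238 for Col11a1 and for Col24a1, and -0.24 for Col27a1.

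Over the 12 libraries, after removal of group means, the 5 genes most like Col1a1 among 15984 were Ckap4 (r = 0.940), Map3k5 (r = 0.932), Fndc1 (r = 0.922), Adamts2 (r = 0.912) and Ssc5d (r = 0.912). Adamts2 cuts the amino-terminal propeptide from fibrillar procollagens, and its own log2 fold change of 0.63 ± 0.22 did not pass (limma adjusted p = 0.0511). Without cPTAA 12, these r values were 0.835, 0.730, 0.628, 0.725 and 0.674. The 5 most like Col11a1 were Acan (r = 0.973), the main proteoglycan of cartilage, Dpp6 (r = 0.960), Cdc14a (r = 0.958), Evpl (r = 0.944) and Gclc (r = 0.943). Without sham 8 they were at 0.933, 0.907, 0.919, 0.852 and 0.871.

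Genes that act on fibrillar collagens were described from lists, where 12.9% of all tested genes rose and 11.1% fell. Of 15 partners of the fibril, 12 rose and 1 fell, with a median log2 fold change of 1.23 (Lum and Dcn are also among the fibroblast markers, and Comp among the cartilage markers). The small proteoglycans Lum and Fmod, which bind fibrils and limit their growth, were at 9356 ± 2512 and 6234 ± 2591 normalised read counts in cPTAA, against 2164 ± 581 and 837 ± 334 in sham (SD, n = 7 and 5; log2 fold changes 2.11 and 2.91, limma adjusted p = 1.36e-05 and 1.80e-05). Comp had a log2 fold change of 3.80 ± 0.39. The single fall was Ogn, another small proteoglycan, at 5725 ± 1323 in cPTAA and 9789 ± 1662 in sham.

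Of 25 genes that fold, carry or cut procollagen, 12 rose and 1 fell, with a median log2 fold change of 0.72. P4ha3, a prolyl hydroxylase subunit, was at 478 ± 362 in cPTAA and 11.3 ± 4.01 in sham (SD, n = 7 and 5; log2 fold change 4.97 ± 0.48, limma adjusted p = 8.90e-06). Fkbp10, a collagen chaperone, and Pcolce, which speeds the removal of the carboxy-terminal propeptide, had log2 fold changes of 1.003 ± 0.12 and 1.24 ± 0.16. The fall was Pcolce2, a relative of Pcolce (-0.63 ± 0.16, limma adjusted p = 0.0113), a call lost after scaling to library totals and without cPTAA 6, 7 and 9 and sham 8 (adjusted p = 0.0658 and 0.0728). Of the 5 lysyl oxidases, the enzymes that BAPN inhibits, 4 rose and 0 fell. These were Lox, Loxl1, Loxl2 and Loxl3, with log2 fold changes of 2.35 ± 0.38, 1.21 ± 0.17, 1.53 ± 0.25 and 1.61 ± 0.27. Loxl4 did not pass (0.61 ± 0.47, limma adjusted p = 0.390).

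Of 24 genes of collagen transcription and TGF-beta signalling, 8 rose and 1 fell, with a median log2 fold change of 0.35. The smallest p-values were those of Ccn2, a matricellular gene induced by TGF-beta (2.07 ± 0.28), Scx, a transcription factor of tendon that acts on Col1a1 (1.84 ± 0.27), and Runx2, of bone and cartilage (2.61 ± 0.45). Nfyc, a subunit of the CCAAT-binding factor, fell by a small amount (-0.44 ± 0.15, limma adjusted p = 0.0421), a call lost without any 1 of cPTAA 2, 3, 4, 6 and 12 and sham 1, 5, 10 and 11. It was also lost without a filter and after scaling by TMM or by library totals (adjusted p = 0.0597, 0.0634 and 0.081). Of 16 collagen receptors and enzymes of collagen breakdown, 9 rose and 1 fell, with a median log2 fold change of 1.32. Lair1, an inhibitory collagen receptor of leukocytes, Itga11, a collagen-binding integrin subunit of fibroblasts, and Ctsk, a protease that cuts collagen, had log2 fold changes of 3.36 ± 0.35, 3.54 ± 0.41 and 2.19 ± 0.25. The fall was Adgrg1, a receptor for type III collagen (-0.85 ± 0.17, limma adjusted p = 0.00203). Col11a2, the other fibrillar chain outside the 9, was at 14.4 to 57.2 in cPTAA and 31.6 to 538 in sham and did not pass (-1.46 ± 0.58, limma adjusted p = 0.0834). It did pass as lower by edgeR and DESeq2 and without sham 1 (adjusted p = 0.0179, 0.00151 and 0.0393). Without sham 8, at 538 the highest library, its log2 fold change was -0.82 (adjusted p = 0.186).

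Other tissue in the samples moved with these results. Recovered totals were 15238188 to 17493428 reads in cPTAA and 14078885 to 16740960 in sham, and the smooth muscle genes Myh11 and Acta2, which mark the aortic media, were present at 14096 and 43918 or more in every library. Of 7 smooth muscle markers 0 rose and 3 fell, and Myh11 was at 14096 to 60173 in cPTAA and 61075 to 87197 in sham, lowest in cPTAA 12. Other markers of this list overlapped between groups. Acta2 was at 43918 to 179150 in cPTAA and 115108 to 174412 in sham. Tagln was at 235 to 1491 in cPTAA and 446 to 685 in sham. All 8 brown adipocyte markers were lower in cPTAA, with a mean log2 score of 8.35 ± 1.16 in cPTAA and 10.99 ± 0.60 in sham (SD, n = 7 and 5), lowest in cPTAA 12. That score ran from 6.20 to 10.016 in cPTAA and from 10.021 to 11.50 in sham, so the groups did not overlap in it. Score and condition can therefore hardly be told apart in one model. Of 6 fibroblast markers, 2 rose and 0 fell, and their score was 12.42 ± 0.26 in cPTAA and 11.88 ± 0.36 in sham. The 2 that rose were Lum and Dcn, which are also fibril partners, so a fit with this score holds fibril genes constant in part. The markers Pi16 and Scara5 were at 3348 to 4955 and 1028 to 2803 in cPTAA. In sham they were at 3234 to 5837 and 1820 to 3254. Pdgfra and Dpt were at 1485 to 4094 and 4709 to 8185 in cPTAA, and at 1422 to 2552 and 2541 to 5707 in sham. None of these markers passed. All 5 macrophage markers rose. With the brown adipocyte score added to the model 0 of the 9 chains rose and 0 fell, where 2.34% of all tested genes rose and 0.985% fell. In that fit the log2 fold changes of Col1a1, Col1a2, Col3a1 and Col5a2 were 0.36, 0.26, 0.35 and 0.57 (limma adjusted p = 0.616, 0.659, 0.637 and 0.379). Against the same 2.34%, 3 of 15 fibril partners, 1 of 25 folding or cutting genes, 0 of 5 lysyl oxidases, 0 of 24 transcription and signal genes and 2 of 16 receptor and breakdown genes rose. With the fibroblast score as a covariate, 1 chain (Col5a2) rose and 0 fell, where 6.24% of all tested genes rose and 3.89% fell. The log2 fold change of Col5a2 was then 1.43 (limma adjusted p = 0.0467). Those of Col1a1, Col1a2, Col3a1, Col5a3 and Col11a1 were 1.32, 1.06, 0.98, 0.62 and 2.62 and did not pass (limma adjusted p = 0.0823, 0.0950, 0.145, 0.399 and 0.229). In the lists 5 fibril partners, 6 folding or cutting genes, 4 lysyl oxidases, 3 transcription and signal genes and 5 receptor and breakdown genes rose. Whether these cell types account for the collagen results was not tested beyond these fits.

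**Figure D5:**
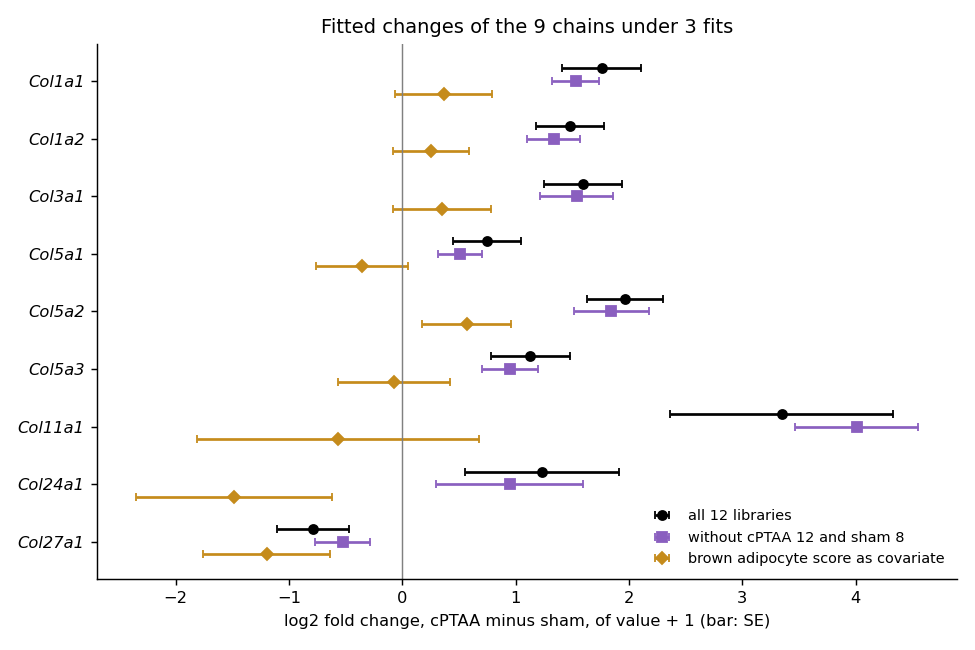
Fitted log2 fold change, cPTAA minus sham, of value + 1 for each chain with its SE, from the fit of all 12 libraries, the fit without cPTAA 12 and sham 8, and the fit that holds the brown adipocyte score constant. Leaving out both libraries leaves 6 chains past the threshold, and the covariate leaves 0.

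Leaving out cPTAA 12 and sham 8 together left 6 chains called higher and 0 lower, where 13.4% of the genes tested then rose and 11.2% fell. The lists then held 10 fibril partners, 13 folding or cutting genes, 4 lysyl oxidases, 9 transcription and signal genes and 9 receptor and breakdown genes that rose, with 1, 1, 0, 1 and 1 that fell.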

How the data were processed

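Whole-tissue RNA was sequenced in 12 samples (7 cPTAA, 5 sham), grouped by the sample titles. Per the labels' protocols, poly(A) RNA was selected with oligo-dT and copied from random hexamer primers. HISAT2 2.0.5, featureCounts 1.5.0-p3 and StringTie, with build GRCm39, are named per the submitters' processing notes without a role. No source used here states the scaling, the strand setting or any filter, so overlapping genes on opposite strands cannot be told apart; Col5a1 shares 1.17% and 1.33% of its exon bases with 2 opposite-strand transcripts in GENCODE M21, and Col3a1 1.44% with a microRNA gene on its own strand.

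As deposited, each gene has a signal that is never negative: 100% of values were whole reads (within 0.02 reads) divided by 1 factor per library, and are called normalised read counts. Recovered totals were 14078885 to 17493428 reads. No libraries of a group agreed within sampling noise (lowest chi-square per degree of freedom 18.75).

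The main test was limma 3.58.1 under R 4.3.3 on log2(value + 1), with its trend option. It covered the 21415 genes that reached 1 in 5 libraries or more, Benjamini-Hochberg adjusted over all 21415, at a threshold of 0.05. Fold changes on this scale understate those of low genes. Ratios and relations used exact permutation tests (scipy 1.17.1). Alternatives were edgeR 4.0.16 (quasi-likelihood) on whole reads, which called 2622 genes higher and 2261 lower of 15839, DESeq2 1.42.0, voom, other scalings, filters and pseudocounts, marker scores as covariates, and left-out libraries. A marker score is the mean log2(value + 1) of its list. Calculations were tested on simulated data.

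Named genes were all 9 chains, Col2a1 and Col11a2, in each list the 3 smallest p-values and every gene of a direction with 5 or fewer calls, and the 5 genes most like Col1a1 and Col11a1 with a mean of at least 10. Cartilage markers named singly were chosen after their values were seen. Members, lists and tests were chosen with earlier results of these data known.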

Additional observations from a re-analysis of the deposited data

Results flagged for a closer look

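Values of 1 library far from the others of its group were looked for in 44 groups of values, without taking logs. These were the 9 chains, the 12 ratios and the summed share of reads, in each condition. Chance alone marks about 5% of groups only where values are normally distributed, and read counts on this scale can be skewed upward. The number flagged is therefore not compared with 5%. Of the 9 values flagged, 7 were in cPTAA 12. There, Col1a1 was at 48402 normalised read counts, Col1a2 at 95063, Col5a1 at 9829, Col5a3 at 1030, Col11a1 at 2056 and Col24a1 at 35.1, where the next highest cPTAA libraries were at 15194, 46246, 3623, 422, 595 and 9.76. The 9 chains together took 2.19% of the reads of cPTAA 12, against 1.03% in the next library. The values of cPTAA 12 are not independent of each other, since they come from 1 sample.

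The other 2 were in sham 8. Col11a1 was at 696 normalised read counts there, against at most 23.9 in the other sham libraries, and the ratio of Col11a1 to Col5a1 was 0.332, against at most 0.0108.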

How the results depend on the processing

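No paired analysis was possible because the library numbers of cPTAA and sham share no number. The count of 6 chains higher became 0 with the brown adipocyte score and 1 with the fibroblast score as covariate, and ranged from 4 to 6 without any 1 library. The count of 0 lower became 1 by edgeR, by DESeq2 and with the chondrocyte score as covariate (chosen after seeing the data), and ranged from 0 to 1 without any 1 library (1 without sham 1 or sham 5). With the brown adipocyte score the log2 fold changes turned to -0.35 for Col5a1, -0.0709 for Col5a3, -0.57 for Col11a1 and -1.48 for Col24a1. The cause was not tested.

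The count of 3 ratios became 0 with medians and 0 without cPTAA 6, 7 and 9 and sham 8, where 4 against 4 libraries allow no p below 0.0286, and ranged from 2 to 4 without any 1 library. The log2 difference of Col3a1 to Col1a1 turned to 0.0397 with medians and 0.0059 without cPTAA 12 and sham 8. That of Col24a1 to Col1a2 turned to 0.49 with a pseudocount of 0.1, 0.01 without cPTAA 3 and 0.10 without sham 5. Pearson's r of Col27a1 with Col1a1 ranged from -0.24 (without cPTAA 12) to 0.83 without any 1 library. The log2 fold change of Nfyc turned to 0.0964 with the brown adipocyte score. Col1a1, Col1a2 and Col3a1 kept their direction under all 26 alternatives and their call under 24, and Col5a2 its call under 25. With few samples and 0 to 38 reads a library, depth limits what can be said of Col24a1.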
